A study of Malus domestica with 6 samples.

Results

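The genes described here encode the 3 enzymes that open the phenylpropanoid pathway: phenylalanine ammonia-lyase (PAL), cinnamate 4-hydroxylase (C4H) and 4-coumarate:CoA ligase (4CL). They were 6 of the 52311 gene IDs in the tables, 2 per enzyme, and were taken by ID: MD04G1096200 and MD07G1172700 for PAL, MD00G1221400 and MD11G1052900 for C4H, and MD01G1236300 and MD07G1309000 for 4CL. These IDs were picked with their difference between red and white flesh already known, so that difference is given below as a description, without a test. Its presence is no finding, and its size and its split between genes describe these libraries only.

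Messenger RNA was sequenced from mesocarp, the edible flesh, of apple (Malus domestica) cv. 'R201', a red-flesh cultivar planted in 2013 and sampled at 84 days after full bloom with no treatment. There were 3 libraries of red flesh (RF) and 3 of white flesh (WF), lettered A to C in each group, from fruits of different trees that the labels call semi-biological replicates. The labels state that RF and WF came from shared fruits, and per the study RF was the outer and WF the inner cortex, so the effects of colour and of depth in the fruit cannot be told apart. Library totals were 25540845 to 25959371 estimated reads in RF and 25536185 to 26050906 in WF.

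PAL removes ammonia from the amino acid phenylalanine and gives cinnamate. C4H, a cytochrome P450 enzyme held in the endoplasmic reticulum, adds a hydroxyl group to make p-coumarate, and 4CL joins p-coumarate to coenzyme A. The product, p-coumaroyl-CoA, is the common starting point of flavonoids, among them the red anthocyanins of apple, and of lignin and hydroxycinnamate esters such as chlorogenic acid.

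The summed mRNA of the listed genes of each enzyme was higher in RF, and the size of the difference varied by step. Enzyme levels below are levels of this mRNA, as protein was not measured in these libraries. Summed over its listed genes and averaged over the same-letter pairs, PAL was 2.61-fold, 4CL 1.96-fold and C4H 1.38-fold the WF level in TPM, a level scaled by gene length and library size that allows genes to be compared. At PAL and at 4CL one gene accounted for most of the level and most of the difference, MD04G1096200 and MD01G1236300. At C4H both genes stood at high and similar levels and differed between RF and WF by similar amounts. All 6 genes passed the filter on low counts, and in all 6 the lowest RF library was above the highest WF library in TPM, a separation that 15.1% of the 28610 tested genes showed in this direction. As the genes were picked on this contrast, nothing is read from that count.

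**Figure D1:**
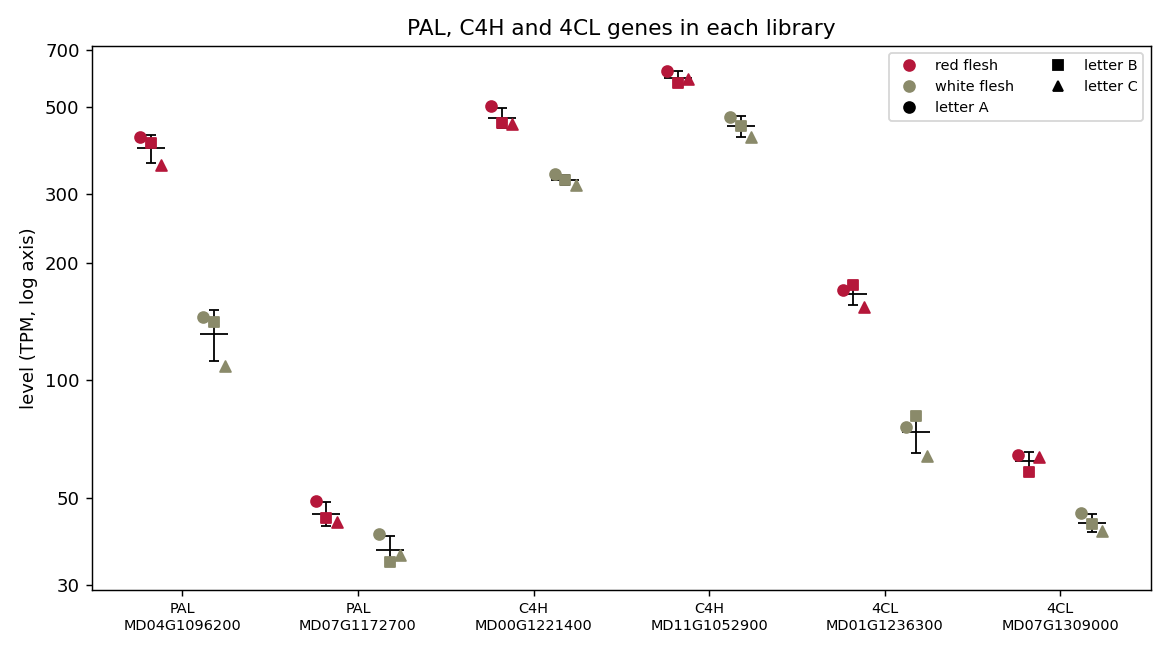
Level of each of the 6 genes in every library, in TPM on a log axis, with RF points left of WF points for each gene, symbols for the letters A to C, and black bars for the mean and SD of 3 libraries. MD04G1096200 averaged 392 TPM in RF and 132 TPM in WF, whereas MD07G1172700 averaged 45.7 TPM in RF and 36.9 TPM in WF.

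PAL, the first step, was the enzyme whose genes differed most from each other. MD04G1096200, on chromosome 4 and described in the study's annotation as PHE ammonia lyase 1, had 418, 403 and 356 TPM in RF libraries A, B and C, against 145, 141 and 109 TPM in WF libraries A, B and C. Library C was the lowest of both groups, and the lowest RF library was 2.45 times the highest WF library. The gene averaged 392 ± 32.7 TPM in RF and 132 ± 19.6 TPM in WF (SD, n = 3 each), and its fitted log2 fold change was 1.58 (SE 0.10). Of the 28610 tested genes, 162 had a higher fitted value. For the other members that number was 324 (MD01G1236300), 1453 (MD00G1221400), 1472 (MD07G1309000), 2117 (MD11G1052900) and 3142 (MD07G1172700).

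The other listed PAL gene, MD07G1172700 on chromosome 7, described as phenylalanine ammonia-lyase 2, was low in both tissues. It had 49.2, 44.4 and 43.4 TPM in RF libraries A, B and C, and 40.5, 34.5 and 35.8 TPM in WF libraries A, B and C. The groups did not overlap but were close, as the lowest RF value was 1.07 times the highest WF value. The fitted log2 fold change was 0.31 (SE 0.08), with 45.7 ± 3.13 TPM in RF and 36.9 ± 3.16 TPM in WF (SD, n = 3 each). In TPM, MD04G1096200 stood 8.59 ± 0.45 times above MD07G1172700 in RF and 3.57 ± 0.52 times above it in WF (SD, n = 3 each).

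In estimated reads, the other deposited measure, MD04G1096200 had 20989, 20239 and 18354 in RF libraries A, B and C, against 7443, 7172 and 5676 in WF libraries A, B and C. MD07G1172700 had 2573, 2320 and 2331 estimated reads in RF libraries A, B and C, against 2164, 1829 and 1939 in WF libraries A, B and C. By both measures MD04G1096200 was the dominant PAL gene in every library. Counting error at these depths was at most 1.33% for MD04G1096200 and 2.34% for MD07G1172700, smaller than the spread between libraries of a group.

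C4H, the second step, had the highest levels of the 3 enzymes. MD11G1052900, on chromosome 11, had 619, 574 and 589 TPM in RF libraries A, B and C, against 472, 447 and 418 TPM in WF libraries A, B and C. Library A was the highest of both groups, and the lowest RF library was 1.22 times the highest WF library. The mean level was 594 ± 22.9 TPM in RF and 446 ± 27.0 TPM in WF (SD, n = 3 each), with a fitted log2 fold change of 0.42 (SE 0.07).

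MD00G1221400, whose ID places it on no chromosome, had 502, 456 and 451 TPM in RF libraries A, B and C, against 336, 324 and 316 TPM in WF libraries A, B and C. Here too library A was the highest and library C the lowest of both groups, and the lowest RF library was 1.34 times the highest WF library. It averaged 469.6 ± 27.9 TPM in RF and 326 ± 9.99 TPM in WF (SD, n = 3 each), and the fitted log2 fold change was 0.53 (SE 0.07). The level of MD00G1221400 was 0.79 ± 0.02 of that of MD11G1052900 in RF and 0.73 ± 0.02 in WF (SD, n = 3 each).

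In estimated reads MD11G1052900 had 25035, 23242 and 24470 in RF libraries A, B and C, against 19533, 18376 and 17536 in WF libraries A, B and C. MD00G1221400 had 16310, 14864 and 15027 estimated reads in RF libraries A, B and C, against 11174, 10738 and 10656 in WF libraries A, B and C. The distance between the C4H genes was wider in reads than in TPM, since the deposited lengths are 1789 bases for MD00G1221400 and 2166 bases for MD11G1052900, and a longer transcript yields more reads at the same level.

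4CL, the third step, again had a dominant gene with the larger difference. MD01G1236300, on chromosome 1, had 170.2, 175 and 154 TPM in RF libraries A, B and C, against 76.2, 81.0 and 64.3 TPM in WF libraries A, B and C. Library B was the highest and library C the lowest of both groups, and the lowest RF library was 1.91 times the highest WF library. It averaged 167 ± 10.9 TPM in RF and 73.8 ± 8.61 TPM in WF (SD, n = 3 each), with a fitted log2 fold change of 1.18 (SE 0.08), and 324 of the 28610 tested genes had a higher one.

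MD07G1309000, on chromosome 7, had 64.5, 58.2 and 63.9 TPM in RF libraries A, B and C, against 45.7, 42.9 and 41.3 TPM in WF libraries A, B and C. The groups did not overlap, and the lowest RF library was 1.27 times the highest WF library. It averaged 62.2 ± 3.48 TPM in RF and 43.3 ± 2.25 TPM in WF (SD, n = 3 each), and the fitted log2 fold change was 0.53 (SE 0.07). Both 4CL genes carry the same description, 4-coumarate:CoA ligase 3, the form that in Arabidopsis is associated with flavonoid synthesis.

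In estimated reads MD01G1236300 had 8107, 8350.0 and 7563 in RF libraries A, B and C, against 3709.8, 3919 and 3172 in WF libraries A, B and C. MD07G1309000 had 3036, 2739 and 3089 estimated reads in RF libraries A, B and C, against 2199, 2052 and 2011 in WF libraries A, B and C. MD01G1236300 was the dominant 4CL gene in every library, by a factor in TPM of 2.69 ± 0.30 in RF and 1.70 ± 0.17 in WF (SD, n = 3 each).

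The order of the 6 genes by TPM was the same in RF and in WF: MD11G1052900, MD00G1221400, MD04G1096200, MD01G1236300, MD07G1309000 and MD07G1172700, from high to low. No neighbours in that order overlapped in range within either group. The distances changed, however. The gap between MD00G1221400 (C4H) and MD04G1096200 (PAL) was 1.20-fold in RF and 2.47-fold in WF, the largest change of any gap between neighbours. Among all 52311 gene IDs ranked by mean TPM, MD04G1096200 stood at place 266 in RF and 1211 in WF, MD01G1236300 at 928 in RF and 2419 in WF, and MD11G1052900 at 144 in RF and 214 in WF.

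The summed level of PAL was 467, 448 and 399 TPM in RF libraries A, B and C, against 185, 175 and 145 TPM in WF libraries A, B and C. The summed level of C4H was 1121, 1030.1 and 1041 TPM in RF libraries A, B and C, against 809, 771 and 735 TPM in WF libraries A, B and C. The summed level of 4CL was 235, 234 and 218 TPM in RF libraries A, B and C, against 122, 124 and 106 TPM in WF libraries A, B and C. None of the 3 sums overlapped between RF and WF. C4H had the highest sum in every library, with PAL next and 4CL last.

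PAL and C4H were far apart in fold and closer in amount. The mean difference in summed TPM was 292 for C4H, 269.5 for PAL and 112 for 4CL, so over the listed genes the enzyme with the smallest fold had the largest mean difference in TPM. That order was not stable. In pair B the PAL difference was the larger, in CPM, which is not scaled by gene length, the mean difference was 537 for PAL and 425 for C4H, and with the further PAL gene described below the PAL difference was 342 TPM. The level of PAL relative to C4H was 0.41 ± 0.03 in RF and 0.22 ± 0.02 in WF, that of 4CL relative to C4H was 0.22 ± 0.01 in RF and 0.15 ± 0.01 in WF, and that of PAL relative to 4CL was 1.91 ± 0.08 in RF and 1.44 ± 0.08 in WF (SD, n = 3 each). Together the 6 genes held 0.273% to 0.297% of the estimated reads of RF libraries and 0.159% to 0.177% of those of WF libraries. In bulk tissue of this kind, fewer cells that express a gene and less RNA per cell cannot be told apart.

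Red to white ratios were then taken within each same-letter pair. For MD04G1096200 the ratio in TPM was 2.88 in pair A, 2.87 in pair B and 3.26 in pair C, and for MD07G1172700 it was 1.22 in pair A, 1.29 in pair B and 1.21 in pair C. For MD00G1221400 it was 1.49 in pair A, 1.41 in pair B and 1.43 in pair C, and for MD11G1052900 it was 1.31 in pair A, 1.28 in pair B and 1.41 in pair C. For MD01G1236300 it was 2.24 in pair A, 2.16 in pair B and 2.40 in pair C, and for MD07G1309000 it was 1.41 in pair A, 1.36 in pair B and 1.55 in pair C. Every gene was above 1 in every pair, and pair C gave the highest ratio for 4 of the 6 genes, the exceptions being MD07G1172700 and MD00G1221400.

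**Figure D2:**
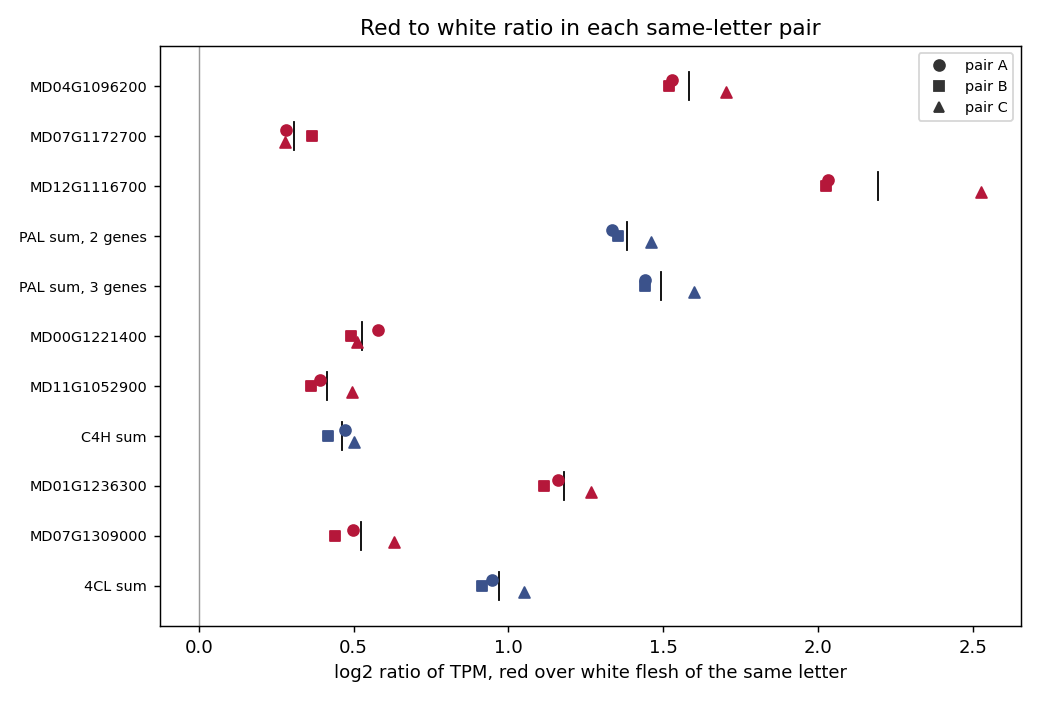
Log2 ratio of TPM, red over white flesh, in each same-letter pair (circle A, square B, triangle C) for the 6 genes, for a further PAL gene outside the rule (MD12G1116700) and, in blue, for the summed enzymes. Black ticks are means of 3 pairs, which lie at 1.38 for the sum of the 2 listed PAL genes, 0.97 for 4CL and 0.46 for C4H.

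The ratio of the PAL sum was 2.52, 2.56 and 2.75 in pairs A, B and C, a mean log2 ratio of 1.38 ± 0.07 (SD, n = 3). The 4CL sum had ratios of 1.93, 1.88 and 2.07 in pairs A, B and C, a mean log2 ratio of 0.97 ± 0.07, and the C4H sum had 1.39, 1.34 and 1.42, a mean log2 ratio of 0.46 ± 0.04 (SD, n = 3 each). In each pair PAL had the highest ratio and C4H the lowest. From estimated reads without rescaling, the PAL sum gave ratios of 2.45, 2.51 and 2.72, the 4CL sum 1.89, 1.86 and 2.06, and the C4H sum 1.35, 1.31 and 1.40 in pairs A, B and C, which kept the same order of steps.

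Within a pair, the genes of one enzyme can be set against each other directly, since both were read in the same libraries. The log2 ratio of MD04G1096200 exceeded that of MD07G1172700 by 1.25, 1.15 and 1.43 in pairs A, B and C, a mean of 1.28 ± 0.14 (SD, n = 3). That of MD01G1236300 exceeded that of MD07G1309000 by 0.66, 0.67 and 0.63, a mean of 0.66 ± 0.02, and that of MD00G1221400 exceeded that of MD11G1052900 by 0.19, 0.13 and 0.02, a mean of 0.11 ± 0.09 (SD, n = 3 each). Among the listed genes, the one with the larger ratio was thus also the dominant one at PAL and at 4CL. At C4H the gene with the lower level had the slightly larger ratio, by an amount that nearly vanished in pair C. The further PAL gene described below, MD12G1116700, had larger ratios than MD04G1096200 at a lower level.

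The share of each enzyme's summed TPM moved accordingly. MD04G1096200 held 89.5%, 90.1% and 89.1% of the PAL level in RF libraries A, B and C, against 78.2%, 80.3% and 75.3% in WF libraries A, B and C, a mean difference of 11.6 ± 2.06 percentage points over pairs. MD01G1236300 held 72.5%, 75.1% and 70.7% of the 4CL level in RF libraries A, B and C, against 62.5%, 65.3% and 60.9% in WF libraries A, B and C, a mean difference of 9.86 ± 0.15 points. MD00G1221400 held 44.8%, 44.3% and 43.4% of the C4H level in RF libraries A, B and C, against 41.6%, 42.1% and 43.1% in WF libraries A, B and C, a mean difference of 1.90 ± 1.47 points (SD over 3 pairs for each). The 4CL share differed by nearly the same amount in every pair, from 9.72 to 10.0 points, the PAL share by 9.76 points in pair B up to 13.8 points in pair C, and the C4H share by 0.30 points in pair C up to 3.18 points in pair A.

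**Figure D3:**
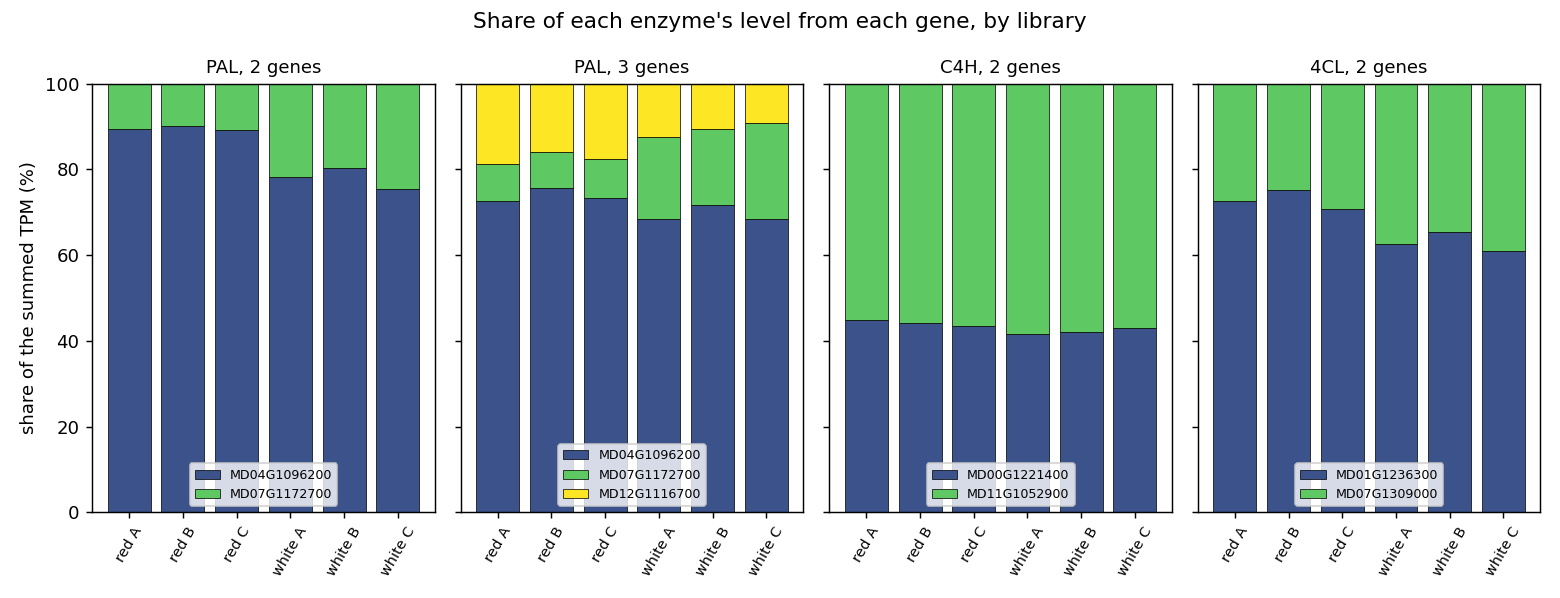
Stacked bars of the percent of each enzyme's summed TPM that each gene gave in every library, RF libraries A to C left of WF libraries A to C. MD04G1096200 averaged 89.6% of the 2 listed PAL genes in RF and 77.9% in WF, and the panel with 3 PAL genes adds MD12G1116700, at 17.4% in RF and 10.8% in WF.

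Of the mean difference in TPM of the 2 listed PAL genes, MD04G1096200 made up 96.8% and MD07G1172700 3.25%. Of the 4CL difference, MD01G1236300 made up 83.1% and MD07G1309000 16.9%, and of the C4H difference MD00G1221400 made up 49.3% and MD11G1052900 50.7%. The C4H split changed between pairs, with MD00G1221400 at 53.0% in pair A, 50.8% in pair B and 44.1% in pair C by TPM. By CPM it was at 47.0% in pair A, 45.7% in pair B and 38.7% in pair C, so which C4H gene contributed more in pairs A and B depended on the unit. Of the 36 estimated read values of the 6 genes, 2 were whole within 0.0005, so some reads that match several genes were divided. Which genes shared these reads is not known. A copy's own value is less certain than the enzyme's sum only where the sharing stayed within the listed genes. The further PAL gene described below lies outside the PAL sum.

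A further PAL gene, outside the rule, was described in the same annotation as PHE ammonia lyase 1: MD12G1116700 on chromosome 12. It had 108, 84.7 and 85.5 TPM in RF libraries A, B and C, against 26.4, 20.8 and 14.8 TPM in WF libraries A, B and C. It was higher in RF with no overlap, at 92.8 ± 13.3 TPM in RF and 20.7 ± 5.82 TPM in WF (SD, n = 3 each), a log2 fold change of 2.17 (SE 0.17, edgeR quasi-likelihood test with Benjamini-Hochberg adjustment, adjusted p = 4.01e-05, range over the alternatives 9.34e-14 to 0.00718). Its description came from the study's list of called genes, so the call is not independent evidence. In the pairs its ratio was 4.09, 4.07 and 5.77 in A, B and C, above that of MD04G1096200 by 0.61 ± 0.18 on the log2 scale (SD, n = 3).

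Adding this gene raised summed PAL to 531 ± 45.6 TPM in RF and 189 ± 26.7 TPM in WF (SD, n = 3 each), with pair ratios of 2.72, 2.72 and 3.03 in A, B and C. MD04G1096200 then held 73.9% of the PAL level in RF and 69.5% in WF, a difference of 4.43 points in place of 11.6, while MD07G1172700 held 8.61% in RF and 19.7% in WF. Of the mean difference in PAL level over the 3 genes, MD04G1096200 made up 76.3%, MD12G1116700 21.1% and MD07G1172700 2.56%. MD04G1096200 remained the dominant PAL gene in every library, MD12G1116700 had the largest fold, and the order of MD12G1116700 and MD07G1172700 differed between the tissues, MD12G1116700 being above in every RF library and below in every WF library. Other copies of the 3 enzymes may stand among the gene IDs that have no description here and were not counted.

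Across the libraries of one group the 6 genes moved in a similar way. Letter A was the highest library for 5 of the 6 genes in RF and for 5 of 6 in WF, the exception in both being MD01G1236300, where B was the highest. Letter C was the lowest library for 4 of the 6 genes in RF and for 5 of 6 in WF. The coefficient of variation over 3 libraries ran from 3.85% for MD11G1052900 to 8.33% for MD04G1096200 in RF and from 3.07% for MD00G1221400 to 14.9% for MD04G1096200 in WF. Both tissues of a letter came from the same fruits, and 3 letters are too few for a correlation.

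The genes with the most similar profiles were taken as those with the smallest root-mean-square difference in log2 CPM over the 6 libraries, each profile centred on its own mean, among 19496 genes. The described genes nearest to MD04G1096200 were NAD(P)H dehydrogenase B3 MD10G1303600, at 0.10, and leucoanthocyanidin dioxygenase MD06G1071600, at 0.13, an enzyme of anthocyanin synthesis, where the median gene was at 0.81. Those nearest to MD01G1236300 were a chalcone-flavanone isomerase family gene, MD07G1186300, at 0.06, and dihydroflavonol 4-reductase MD15G1024100, at 0.08, both flavonoid enzymes, with the median gene at 0.61. No undescribed gene was nearer to either.

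The other 4 members had nearest neighbours of mixed kinds. These were an endomembrane protein 70 gene, MD02G1012600, and a protein kinase, MD07G1235400, both at 0.02 from MD07G1172700, and MAP kinase 4 MD00G1111900 and SOS3-interacting protein 4 MD03G1054700, both at 0.03 from MD00G1221400. For MD11G1052900 they were a CBS domain gene, MD08G1031700, and ATP-citrate lyase A-2 MD16G1096300, both at 0.02, with 1 undescribed gene nearer, and for MD07G1309000 they were actin-11 MD12G1056900, at 0.02, and a protein kinase, MD15G1207500, at 0.03. The median gene was at 0.21 from MD07G1172700, 0.29 from MD00G1221400, 0.24 from MD11G1052900 and 0.29 from MD07G1309000. These medians were below those of MD04G1096200 (0.81) and MD01G1236300 (0.61), the members with the largest fold changes. Distances are therefore not compared between members. As likeness here includes the difference between RF and WF by which the members were picked, and described genes are mostly called ones, it is a description of these 6 libraries.

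The steps around the 3 enzymes were read from lists of described genes and tested across all genes. By edgeR's quasi-likelihood test, 10.8% of the 28610 tested genes were called at an adjusted p under 0.05, 6.08% higher and 4.68% lower in RF. With the same-letter pairs as a block, 2981 genes were called higher and 2401 lower, in place of 1740 and 1340. All 34 genes of the 5 pathway lists were called higher with the block. Adjusted p of single genes below come from fits without the block unless it is named. Libraries were also left out without the block, so a call lost there is one of the unpaired fit. The lists rest on descriptions that came mainly from the study's own called genes. Of the described and tested genes, 68.1% were called higher and 18.9% lower in RF. Neither the counts nor the median fold changes of the lists are therefore independent evidence of direction. P-values set the difference between RF and WF against the spread between these libraries. Without the block, that spread includes the spread between letters. The 0 genes called lower in each of the 5 pathway lists stand beside fitted values that were all above 0.

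**Figure D4:**
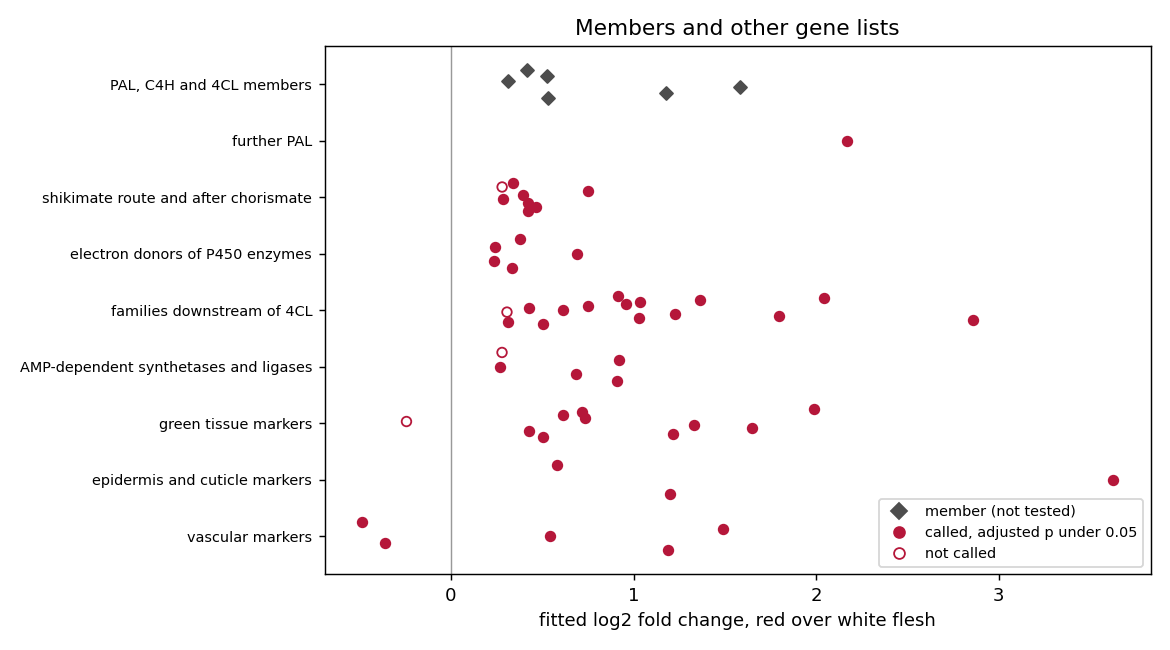
Fitted log2 fold change, red over white flesh, of the 6 members (diamonds, not tested) and of each gene in the other lists (filled circles called at an adjusted p under 0.05 by edgeR, open circles not called). The members run from 0.31 to 1.58, and the genes of families downstream of 4CL from 0.31 to 2.86, both ends of that range being HXXXD-type acyltransferases whose substrates are not given.

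Upstream, the shikimate route makes chorismate, from which phenylalanine, the substrate of PAL, and tyrosine are both made. Of 8 listed genes of this route and the steps after chorismate, 7 were called higher and 0 lower in RF, with a median log2 fold change of 0.41. The most abundant, MD00G1037100, a DAHP synthase of the entry step, averaged 1051 ± 52.5 TPM in RF and 787 ± 59.8 TPM in WF (SD, n = 3 each, log2 fold change 0.42, edgeR adjusted p = 0.00747). A further DAHP synthase, MD15G1372600, averaged 445 TPM in RF and 368 TPM in WF and did not pass the test (edgeR adjusted p = 0.0679, 0.00132 with the pairs as a block and 0.0139 by DESeq2, range over the alternatives 0.00132 to 0.241). Dehydroquinate dehydratase MD04G1213800 averaged 329.5 TPM in RF and 271 TPM in WF (edgeR adjusted p = 0.0114, and 0.00098 with the pairs as a block). The call was lost without RF library A (0.0521) or WF library B (0.0547), with a range over the alternatives of 7.93e-05 to 0.0547. Chorismate mutase MD09G1057700, which commits chorismate to phenylalanine and tyrosine, averaged 51.8 TPM in RF and 39.5 TPM in WF (edgeR adjusted p = 0.00121). One of the 7, named after its values were seen, is a prephenate dehydrogenase family gene, MD17G1215800, which by its description leads to tyrosine and not to phenylalanine (25.4 TPM in RF and 20.1 TPM in WF, edgeR adjusted p = 0.0103, range over the alternatives 0.000809 to 0.0599). Without RF library A or WF library B, 5 of the 8 genes were called.

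C4H depends on electrons from cytochrome P450 reductase, and cytochrome b5 is a further donor in the same membrane. All 5 listed genes of these kinds were called higher in RF, with a median log2 fold change of 0.33. Cytochrome b5 MD04G1006200 averaged 159.8 TPM in RF and 127 TPM in WF (edgeR adjusted p = 0.00374), and P450 reductase 2 MD13G1253300 averaged 39.7 TPM in RF and 24.7 TPM in WF (edgeR adjusted p = 0.000299). These 2 calls held with each library left out. P450 reductase 2 MD16G1257600, at 33.1 TPM in RF and 25.5 TPM in WF (edgeR adjusted p = 0.0146), was not called without RF library A (0.0663) or WF library B (0.0759). With the pairs as a block edgeR gave 0.000155, and the range over the alternatives was 0.000155 to 0.0759. P450 reductase 1 genes MD15G1386100, at 59.3 TPM in RF and 50.3 TPM in WF (edgeR adjusted p = 0.0307), and MD08G1199100, at 61.8 TPM in RF and 52.6 TPM in WF (edgeR adjusted p = 0.0353), lost the call without RF library A, RF library C, WF library B or WF library C, where edgeR gave adjusted p of 0.0588 to 0.144 for MD15G1386100 and 0.0692 to 0.163 for MD08G1199100. With the pairs as a block both were called, at an edgeR adjusted p of 0.00272 for MD15G1386100 and 0.00296 for MD08G1199100, the lowest over all alternatives. Without RF library A or WF library B, 2 of the 5 genes were called, and without RF library C or WF library C, 3. Summed, the 5 genes stood at 352 to 356 TPM in RF and 271 to 290.3 TPM in WF.

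The AMP-dependent synthetase and ligase family is the wider family to which 4CL belongs, and what these genes activate is not given by their description. Of 5 listed, 4 were called higher and 0 lower in RF, with a median log2 fold change of 0.69. MD14G1102200 averaged 65.9 TPM in RF and 34.8 TPM in WF (edgeR adjusted p = 6.04e-05), and MD05G1098700 averaged 13.2 TPM in RF and 7.03 TPM in WF (edgeR adjusted p = 0.00713). MD06G1079100, at 308 ± 42.2 TPM in RF and 192 ± 39.4 TPM in WF (SD, n = 3 each), was the most abundant and was above both listed 4CL genes in mean level. Its call (edgeR adjusted p = 0.0108) was lost without RF library A (0.0512), without RF library C (0.05) and with robust dispersion (0.0666). The range over the alternatives was 6.77e-06, with the pairs as a block, to 0.0666. MD09G1129700, at 88.8 TPM in RF and 74.0 TPM in WF (edgeR adjusted p = 0.0197), was not called without RF library A (0.0873), RF library C (0.0519) or WF library B (0.0917). Its range over the alternatives was 0.00134, with the pairs as a block, to 0.0917. MD17G1118500, at 62.2 TPM in RF and 51.3 TPM in WF, was called only with the block (0.00108), by DESeq2 (0.0264), with robust dispersion (0.0441) and without WF library A (0.0206), not in the edgeR fit of all libraries without the block (0.0533), and its adjusted p reached 0.206 over the alternatives. Without RF library A or RF library C, 2 of the 5 genes were called.

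Downstream, p-coumaroyl-CoA is taken by chalcone synthase into flavonoids and by some acyltransferases of the HXXXD type into esters. The HXXXD family also holds enzymes with other substrates, and the descriptions do not say which these are. Cinnamyl alcohol dehydrogenase does not use p-coumaroyl-CoA itself but reduces cinnamaldehydes, later on the route to lignin. Of 15 listed genes of these families (4 chalcone synthase, 10 HXXXD-type and 1 cinnamyl alcohol dehydrogenase), 14 were called higher and 0 lower in RF, with a median log2 fold change of 0.96. All 4 genes listed as chalcone synthase were among them, though their description names only the chalcone and stilbene synthase family. MD04G1003000 averaged 1487 ± 25.6 TPM in RF and 728 ± 45.6 TPM in WF (edgeR adjusted p = 2.27e-05), MD04G1003300 averaged 1438 ± 85.7 TPM in RF and 414 ± 44.1 TPM in WF (edgeR adjusted p = 5.44e-06), and MD04G1003400 averaged 875 ± 91.6 TPM in RF and 375 ± 33.4 TPM in WF (edgeR adjusted p = 3.99e-05; SD, n = 3 for each). These are neighbouring IDs of one family, and reads that match more than one of them may have been divided. Of the 10 acyltransferases 9 were called, and the most abundant, MD02G1015200, averaged 290.1 TPM in RF and 234 TPM in WF (edgeR adjusted p = 0.0454). That call was lost without RF library A (0.155), RF library C (0.152), WF library A (0.116) or WF library B (0.18). The range over the alternatives was 0.00151, with the pairs as a block, to 0.18. Without RF library C or without WF library B, 9 of the 15 genes were called.

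The difference between RF and WF was accompanied by differences in markers of other tissues. Chlorophyll-binding and Rubisco small subunit genes, which mark green tissue, summed to 2063 to 2120.4 TPM in RF and 1205 to 1370.5 TPM in WF. In the edgeR fit of all libraries, 9 of 10 were called higher and 0 lower in RF, with a median log2 fold change of 0.73. The exception, MD10G1265400, averaged 152 TPM in RF and 179.8 TPM in WF (edgeR adjusted p = 0.0546, and 0.0191 with the block, the lowest over the alternatives, the highest being 0.182). It was called lower in 6 alternatives, among them the block and DESeq2. Without RF library B, WF library A or WF library B, 6 of the 10 green tissue genes were called higher. Epidermis and cuticle genes summed to 35.6 to 63.0 TPM in RF and 18.6 to 22.3 TPM in WF. All 3 were called higher, as were 68.1% of the described and tested genes. RF library A stood apart. Lipid transfer protein 4 MD12G1187100 had 29.2 TPM there, 11.5 and 11.7 TPM in RF libraries B and C, and at most 2.01 TPM in WF. For 3-ketoacyl-CoA synthase 11 MD15G1178600 the values were 32.5, 23.1 and 24.8 TPM in RF libraries A, B and C, and at most 21.1 TPM in WF. With robust dispersion, without RF library A or without WF library B, 2 of the 3 were called. Among them MD08G1046600 was very low, at 1.13 TPM in RF and 0.49 TPM in WF. Vascular genes, of interest because lignin is made in xylem, summed to 1264 to 1446 TPM in RF and 854 to 1027 TPM in WF. Most of both sums came from xylem bark cysteine peptidase 3 MD05G1300100, at 1270 TPM in RF and 873 TPM in WF. The other gene of that description, MD08G1023300, was lower in RF, at 7.93 TPM against 11.1 TPM in WF. Phloem protein MD05G1254200 was also lower, at 19.2 TPM in RF and 24.7 TPM in WF. The sum is thus no measure of vascular tissue. Of the 5 genes, 3 were called higher and 2 lower. The number lower was 0 without RF library A or WF library B, and 1 without RF library B, RF library C or WF library A. No marker was at 0 in any library. The markers were likewise picked by description among genes the study had called, and their part in the PAL, C4H and 4CL differences was not tested.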

How the data were processed

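The authors deposited 1 salmon-format table per library, with an estimated count of reads and a TPM value (reads scaled by effective length within a library) for each gene ID, besides a length and an effective length. Libraries were poly(A)-enriched and marked strand with dUTP. For the program's version and settings the sources used here give nothing. Between 36.1% and 39.2% of the authors' estimated counts were not whole, since reads matching several genes are shared out. Gene IDs have the form of the GDDH13 apple annotation, chromosomes were read from the IDs, and none of the IDs matched the RefSeq table at hand (0 matches), so no sequence is shown. Descriptions were held for 2125 IDs, mainly called genes of the study.

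Estimated counts were rounded and tested with edgeR 4.0.16 (R 4.3.3): TMM, its expression filter, quasi-likelihood test with flesh type as the only term, two-sided p adjusted by Benjamini-Hochberg over 28610 genes. CPM are edgeR's counts scaled to TMM-adjusted library sizes. Levels of different genes were compared mainly in TPM, in means ± SD over 3 libraries. Estimated reads and CPM, which are not scaled by gene length, were set beside TPM where stated. Standard errors were derived by dividing each fold change by the root of its F value. The fit was also run on simulated counts. These had no difference between letters, so nothing is concluded from them for the paired libraries here. The members, lists and alternatives were chosen with earlier results of these data known. Named genes outside the members were every gene of a list of up to 5 genes, otherwise the 4 with the highest mean TPM, and the 2 nearest described profiles per member among genes with a mean of at least 100 reads. Marker lists are given by sums and counts, with single genes named after their values were seen.

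Deviations of same-letter samples from their group means correlated across genes (r = 0.27, 0.23 and 0.23 for A, B and C), and the labels state shared fruits, so letters pair the samples. Between letters r was 0.00 or lower, but centring on the group mean pulls these values down, so they add no evidence. Alternatives were the replicate block, DESeq2 1.42.0, its size factors in edgeR, no filter, a mean of at least 50 reads, effective-length offsets, robust dispersion, CPM in place of TPM, a further PAL gene in the sum, and each library left out.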

Additional observations from a re-analysis of the deposited data

How the results depend on the processing

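All 78 fitted fold changes of the 6 members (13 alternatives each) were above 0. With the same-letter replicate block, 2981 genes were called higher and 2401 lower in red flesh, in place of 1740 and 1340. The block added calls in the pathway lists and ended none there. With 1 library left out, 939 to 1624 genes were called higher and 666 to 1523 lower, the fewest higher without white flesh B (939) and the fewest lower without red flesh A (666), and 20 to 30 of the 34 pathway genes outside the members were called higher, in place of 31, with 20 without red flesh A and 20 without white flesh B. None was called lower. The other alternatives called 29 to 34 of the pathway genes. Leaving out 1 library moved the log2 fold change within 1.46 to 1.65 for MD04G1096200, 0.24 to 0.38 for MD07G1172700, 0.47 to 0.56 for MD00G1221400, 0.38 to 0.46 for MD11G1052900, 1.09 to 1.24 for MD01G1236300 and 0.49 to 0.58 for MD07G1309000. It moved the log2 ratio of summed PAL within 1.28 to 1.46 and of summed 4CL within 0.90 to 1.01, and the share difference of MD04G1096200 within 10.3 to 12.8 points and of MD01G1236300 within 8.71 to 11.1 points. With the further copy MD12G1116700, summed PAL had a log2 ratio of 1.49, and the share difference of MD04G1096200 was 4.43 points. CPM in place of TPM kept the direction of every sum and share, but the mean PAL difference was then above that of C4H (537 and 425 CPM), the other way round from TPM, and MD00G1221400 made up 43.8% of the C4H difference, in place of 49.3%. Summed C4H and its share moved by less than the spread between pairs under every alternative. Depth was no limit on the members, with at least 1829 estimated reads each. The number of libraries, 3 a group, limits the spread estimates.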
